A study of Mus musculus with 6 samples.

Results

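The genes described here are Grpr, Lncenc1, Fmo1, Insc, Edil3, Pi15, Foxp2 and Ddr2, 8 of the 27179 genes counted, chosen by their measured level, which was much higher in H7 than in UNKC tumours of the mouse pancreas. That difference between the tumours is therefore given as a description with no test. H7 tumours grew from PANC02-H7 cells and UNKC tumours from UN-KC-6141 cells, both mouse pancreatic carcinoma lines injected into the pancreas of C57BL/6 mice, and were dissected after 20 days. The third group is whole pancreas of C57BL/6 mice, the mice were untreated, and each group has 2 libraries of total RNA. Each tumour group is 1 cell line, a tumour also holds cells of the host, and the age and sex of the mice and the mouse behind each replicate are not stated.

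The 8 genes have no common pathway. Grpr and Ddr2 encode receptors at the cell surface, one for gastrin-releasing peptide, the mammalian relative of bombesin, and one for fibrillar collagens. Edil3 and Pi15 encode secreted proteins, Fmo1 an enzyme that oxygenates drugs at nitrogen and sulfur, Insc an adaptor that helps orient the mitotic spindle, and Foxp2 a forkhead transcription factor. Lncenc1 is a long noncoding RNA known from mouse embryonic stem cells. In rodent pancreas the receptor for gastrin-releasing peptide is known to stimulate secretion of digestive enzymes by acinar cells.

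Promoter sequences are shown for the members with a window in the table used, Grpr, Lncenc1, Insc and Ddr2, so that the bases before each start can be read beside the levels. Each is 1 window of RefSeq (build GRCm38.p6) with 250 bases before and 50 after a transcription start, written 5′ to 3′ along the gene. The windows of Insc and Ddr2 lie at a start inside the span of the gene. Fmo1, Edil3, Pi15 and Foxp2 are named only. Capitals mark every match, on either strand, to 1 of 8 motifs.
Grpr, chrX:163549687-163549986, minus strand: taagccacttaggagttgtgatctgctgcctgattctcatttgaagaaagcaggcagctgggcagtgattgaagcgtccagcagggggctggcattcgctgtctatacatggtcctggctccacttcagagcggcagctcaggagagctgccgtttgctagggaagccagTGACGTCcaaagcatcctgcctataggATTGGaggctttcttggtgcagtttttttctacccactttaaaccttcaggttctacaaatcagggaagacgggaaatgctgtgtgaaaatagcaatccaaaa
Lncenc1, chr13:97434720-97435019, plus strand: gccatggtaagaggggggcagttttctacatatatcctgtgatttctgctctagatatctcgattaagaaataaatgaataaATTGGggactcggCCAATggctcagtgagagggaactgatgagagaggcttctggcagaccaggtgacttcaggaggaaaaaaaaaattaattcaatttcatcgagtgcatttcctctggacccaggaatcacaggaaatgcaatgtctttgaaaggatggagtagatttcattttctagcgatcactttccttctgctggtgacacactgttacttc
Insc, chr7:114745516-114745815, plus strand: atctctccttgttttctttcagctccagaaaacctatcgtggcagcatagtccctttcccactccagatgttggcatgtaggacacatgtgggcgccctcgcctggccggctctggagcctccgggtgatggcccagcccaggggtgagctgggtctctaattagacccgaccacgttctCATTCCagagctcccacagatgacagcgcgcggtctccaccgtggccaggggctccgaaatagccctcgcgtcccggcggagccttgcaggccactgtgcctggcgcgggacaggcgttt
Ddr2, chr1:170088895-170089194, minus strand: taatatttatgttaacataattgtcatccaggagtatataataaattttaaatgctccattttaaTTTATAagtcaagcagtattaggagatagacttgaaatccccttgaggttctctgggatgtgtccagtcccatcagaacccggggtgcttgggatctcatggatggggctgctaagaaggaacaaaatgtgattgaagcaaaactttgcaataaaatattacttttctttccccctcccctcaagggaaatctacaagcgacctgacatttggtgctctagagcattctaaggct
The motifs were TATAAA (the TATA box), CCAAT (bound by NF-Y), TGANTCA (AP-1), TGACGTC (the core of the cAMP response element), GGAATG (TEAD), TGTTTAC (forkhead), CACGTG (E-box) and GGGCGG (GC box), and no match overlapped another. The Grpr window held TGACGTC, 80 bases before the start, and CCAAT. Of all 32851 windows, 3.21% held TGACGTC and 37.4% held CCAAT. In the Lncenc1 window CCAAT was found at 2 places, 168 and 155 bases before the start. The Insc window held GGAATG, as did 14.7% of all windows, and the Ddr2 window TATAAA, as did 13.6%. TGANTCA (7.81% of all windows), TGTTTAC (3.65%), CACGTG (7.15%) and GGGCGG (35.7%) were in none of the 4. The bases were 49.7% G or C for Grpr, 42.3% for Lncenc1, 62.0% for Insc and 39.0% for Ddr2, against a median of 52.7% over all windows. No motif was found in more than 2 of the 4 windows.

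The H7 libraries held 33332516 and 36307030 reads counted in genes, the UNKC libraries 40507546 and 38728423, and the normal pancreas libraries 12077320 and 8204225. Ribosomal RNA, Lars2 and 1 unnamed gene took 20.2% to 28.3% of the reads in each tumour library, against 92.6% and 91.4% in normal pancreas. At least 23884223 reads for all other genes were left in each tumour library, against 891909 and 706236 in the normal libraries. The summed level of 8 acinar cell markers was 12.8 and 15.4 CPM (read counts scaled to the effective library size) in H7 and 7.08 and 3.58 CPM in UNKC tumours, against 11005 and 10586 CPM in normal pancreas. Both replicate 2 tumour libraries held skeletal muscle RNA: the sum of 7 muscle markers was 1.52 and 576 CPM in H7 replicates 1 and 2, 1.11 and 2086 CPM in UNKC replicates 1 and 2, and 7.40 and 2.38 CPM in normal pancreas. Labels do not say whether replicates are separate animals, so p-values measure only the spread between these libraries.

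In H7 tumours 7 of the 8 genes were higher than in normal pancreas, and 29.6% of all 16306 genes tested were called higher. In UNKC tumours 5 of the 8 were lower than in normal pancreas (19.3% of all genes), Edil3 and Insc were called higher (29.1% of all genes, the call of Insc resting on a level too low to be seen in normal pancreas) and Lncenc1 did not pass. Calls are from the edgeR quasi-likelihood test with Benjamini-Hochberg adjustment over all genes. The choice of the genes used the tumour libraries of both lines, so these comparisons with normal pancreas are not independent of it. The median log2 fold change of the 8 genes was 2.70 in H7 and -1.76 in UNKC tumours against normal pancreas, beside 0.34 and 0.42 over all genes. Both comparisons share the normal libraries. Without both replicate 2 tumour libraries, which held the muscle RNA, edgeR called 0 of the 8 genes and 0 of all genes, with adjusted p from 0.0679 to 0.0984 for the 7 genes in H7 tumours, and 7 higher in H7, 1 higher in UNKC and 5 lower in UNKC tumours at an unadjusted p under 0.05. In whole tissue, fewer cells of a type and less RNA per cell cannot be told apart. Against normal pancreas the 8 genes took 3 forms. Grpr, Fmo1, Pi15 and Ddr2 were read in normal pancreas, higher in H7 and lower in UNKC tumours. Lncenc1, Insc and Edil3 had no read in either normal library. Foxp2 was read in normal pancreas, was lower in UNKC tumours and did not pass the test in H7 tumours.

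**Figure D1:**
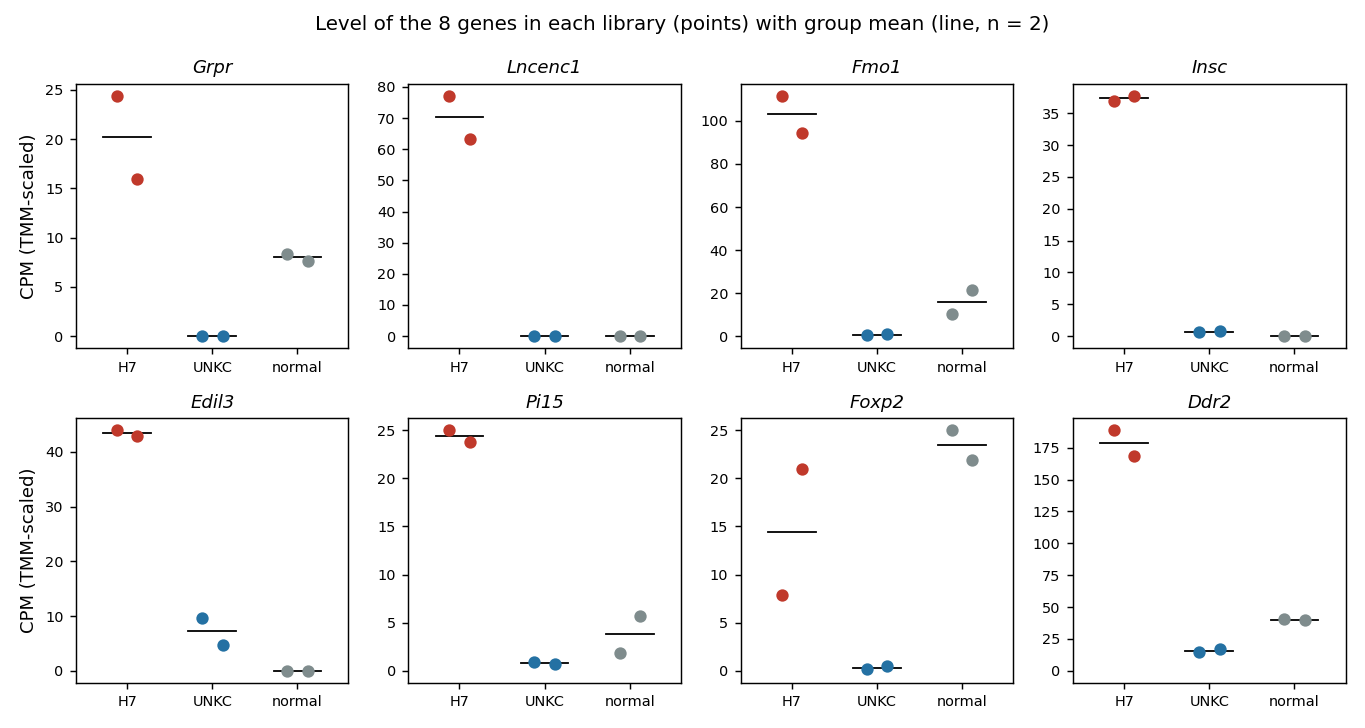
Level of each gene in CPM (vertical axes, linear, 1 scale per gene) in the 2 libraries of H7 tumours, UNKC tumours and normal pancreas; points are libraries and lines group means. Both H7 libraries lie above both UNKC libraries for all 8 genes, the property by which they were chosen, while Foxp2 alone is higher in normal pancreas than in H7 tumours.

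Grpr (chromosome X, 163513904 to 163549736 of GRCm38, minus strand) stood at 24.4 and 15.99 CPM in H7 tumours, 0.0221 and 0.0234 CPM in UNKC tumours and 8.33 and 7.63 CPM in normal pancreas. These are 1686 and 1246 reads in H7, 2 and 2 in UNKC and 18 and 16 in normal libraries, and no 2 groups overlap. The receptor was thus nearly unread in UNKC tumours although those libraries were the deepest. Its log2 fold change against normal pancreas was 1.34 ± 0.27 in H7 tumours (SE, edgeR adjusted p = 0.00687). UNKC tumours held 2 read pairs, 0.00285 of the normal level with a 95% counting interval from 0.000319 to 0.0120 (adjusted p = 0.000136 in edgeR). Between the tumours the ratio was 876, with a counting interval from 242 to 7243. That contrast chose the genes, so the interval describes counting error only and is no test. With the tumour libraries thinned to the depth of the normal ones, the H7 call was lost (log2 fold change 0.98, adjusted p = 0.0714 in edgeR).

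Grp, the gene of the ligand, had 0 and 4 reads in H7 libraries and no read in UNKC or normal libraries. Of the 10 other genes listed for gastrin-releasing peptide and bombesin signalling, 7 were tested between the tumours, 1 was higher in H7 and 0 were lower, beside 7.06% and 11.1% of all genes. The one called gene was Plcb1, a phospholipase C activated by Gq-coupled receptors, at 40.9 and 43.9 CPM in H7 and 11.8 and 15.4 CPM in UNKC tumours (log2 fold change 1.64 ± 0.20, SE, edgeR adjusted p = 0.00424), and 101 and 78.2 CPM in normal pancreas. Gnaq, the Gq subunit, averaged 46.7 ± 1.11 CPM in H7 and 39.6 ± 4.09 CPM in UNKC tumours (SD, n = 2 each, edgeR adjusted p = 0.702). Brs3 and Nmbr, the other receptors of the family, averaged at most 0.0145 CPM in either tumour. Neither was read in normal pancreas, where levels under 1.41 CPM cannot be told from 0.

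Ddr2 (chromosome 1, 169972307 to 170110836, minus strand) had 189 and 168 CPM in H7 tumours, 14.6 and 16.8 CPM in UNKC tumours and 40.7 and 39.6 CPM in normal pancreas. It was the member with the most reads, 13068 and 13127 in the H7 libraries, and its replicates lay close together in every group. A long noncoding RNA that overlaps one end of Ddr2 on the other strand was counted as a gene of its own, with 102 reads over the 6 libraries. Long noncoding RNAs that overlap Pi15 and Edil3 were not counted as genes of their own, and with the strand of counting not stated their reads cannot be told from those of the 2 members. The log2 fold change against normal pancreas was 2.15 ± 0.14 in H7 (SE, adjusted p = 0.000198 in edgeR) and -1.35 ± 0.14 in UNKC tumours (adjusted p = 0.00078). Scaled by total counts only, the UNKC value turned to 2.00 and was called higher (adjusted p = 0.00024 in edgeR). The median of all genes then moved to 3.77, so Ddr2 stayed below that median. The deposited table of the authors gives 1.96 for H7 and -1.51 for UNKC tumours.

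Its paralog Ddr1, which also binds collagen, averaged 56.7 ± 3.70 CPM in H7 and 51.8 ± 4.77 CPM in UNKC tumours (SD, n = 2 each, edgeR adjusted p = 0.578). None of the 5 listed collagen genes passed the test between the tumours, with lower values in H7 for 4 and a log2 fold change of 0.11 for Col10a1 (edgeR adjusted p = 0.926). Col3a1 averaged 349 ± 306 CPM in H7 and 1528 ± 358 CPM in UNKC tumours (adjusted p = 0.0798 in edgeR), and Col1a1 267 ± 160 and 840 ± 433 CPM (adjusted p = 0.0811, SD, n = 2 each). Over all genes 7.06% were higher and 11.1% lower in H7 than in UNKC tumours. Of the 8 listed genes of this group, all tested, Snai1 was higher in H7 (log2 fold change 2.33 ± 0.51, SE, edgeR adjusted p = 0.0247) and Mmp13 lower (-0.95 ± 0.25, adjusted p = 0.0485). Without any 1 library these values ran from 2.03 to 2.71 for Snai1 and from -1.18 to -0.67 for Mmp13. Snai1, a repressor of epithelial genes, stood at 13.2 and 9.12 CPM in H7 and 1.71 and 2.74 CPM in UNKC tumours. Mmp13, a collagenase, stood at 8.09 and 7.22 CPM in H7 and 17.3 and 12.2 CPM in UNKC tumours. The Snai1 call was lost without H7 replicate 1 (adjusted p = 0.204), H7 replicate 2 (0.0809) or UNKC replicate 1 (0.144). The Mmp13 call was lost without the same libraries and with other scaling factors (adjusted p = 0.058 with those of DESeq2 in edgeR).

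Markers of mesenchymal cells were uneven between the tumours beside Ddr2. Of 8 fibroblast markers 2 were higher in H7 tumours and 1 lower, and of 6 pericyte and smooth muscle markers 2 were higher and 2 lower. Over all genes 7.06% were higher and 11.1% lower. The fibroblast markers summed to 568 and 823 CPM in H7, 675 and 1337 CPM in UNKC tumours and 178 and 267 CPM in normal pancreas, and none was at 0 in any group. Most of the UNKC sums was Col1a1, at 533 and 1146 CPM, against 154 and 380 CPM in H7 tumours, a gene that did not pass between the tumours. The 2 fibroblast markers called higher in H7 were Pdgfra (165 and 102 against 23.3 and 40.8 CPM in UNKC tumours) and Dcn (226 and 296 against 65.4 and 83.0 CPM). The 1 called lower was Pdpn (1.33 and 2.18 against 7.35 and 11.6 CPM). The pericyte and smooth muscle markers summed to 366 and 348 CPM in H7, 72.9 and 314 CPM in UNKC tumours and 88.4 and 98.3 CPM in normal pancreas, with none at 0. Des, at 4.40 and 212 CPM in UNKC replicates 1 and 2, made up most of the sum of UNKC replicate 2, which held the muscle RNA. In H7 replicates 1 and 2 Des had 0.709 and 23.6 CPM. Higher in H7 were Pdgfrb, a receptor of mesenchymal cells (204 and 161 CPM, against 29.8 and 38.7 CPM in UNKC tumours), and Acta2 (156 and 153 against 21.3 and 39.4 CPM). Lower in H7 were Cspg4 (1.06 and 2.67 against 6.52 and 8.62 CPM) and Myh11 (1.35 and 1.99 against 3.27 and 7.80 CPM). The 8 ductal epithelium markers summed to 429 and 406 CPM in H7, 1183 and 981 CPM in UNKC tumours and 241 and 165 CPM in normal pancreas, with 0 higher and 4 lower in H7 than in UNKC tumours. The 6 macrophage markers summed to 459 and 418 CPM in H7, 241 and 238 CPM in UNKC tumours and 52.8 and 89.2 CPM in normal pancreas, with 2 higher and 0 lower in H7 than in UNKC tumours. The part of these cells in the levels of the 8 genes was not tested.

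**Figure D2:**
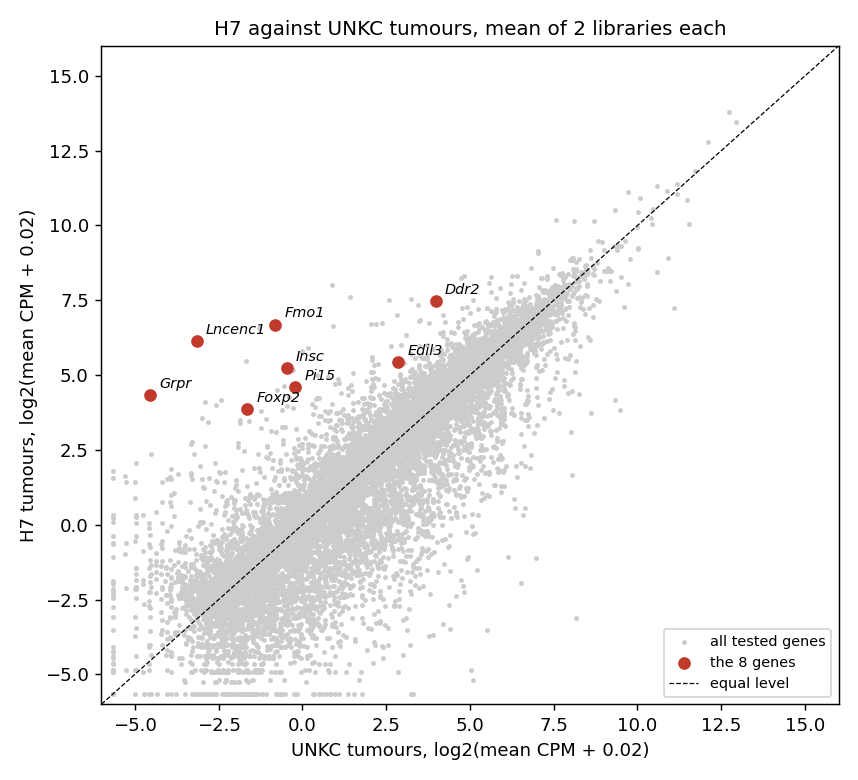
Mean level of every tested gene in H7 tumours (vertical axis) against UNKC tumours (horizontal axis), both as log2(mean CPM + 0.02), with the 8 genes in red and the dashed line at equal levels. All 8 lie above the line, the property by which they were chosen, with Edil3 nearest to it (43.3 CPM in H7 and 7.24 CPM in UNKC tumours).

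Edil3 (chromosome 13, 88821472 to 89323225, plus strand) encodes a secreted protein that binds integrins. Its level was 43.9 and 42.8 CPM in H7 tumours and 9.72 and 4.75 CPM in UNKC tumours, with no read in either normal library. The H7 replicates were alike, and the UNKC replicates lay apart but below both. Against a floor of 3 read pairs over the normal group (1.41 CPM), Edil3 was at least 30.7-fold higher in H7 (edgeR adjusted p = 0.000988) and at least 5.18-fold higher in UNKC tumours (adjusted p = 0.00547). Without UNKC replicate 1, the higher of the pair, the UNKC call was kept (adjusted p = 0.00557 in edgeR). It was the member with the smallest difference between the tumours, a ratio of means of 5.99.

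The paralog and the integrin subunits listed with Edil3 were higher in both tumours than in normal pancreas, 4 of 4 in each comparison. Over all genes 29.6% were higher in H7 and 29.1% in UNKC tumours. Between the tumours 0 of the 4 were higher in H7 and 2 were lower, beside 7.06% and 11.1% of all genes. Mfge8, the closest relative of Edil3, which bridges dying cells to phagocytes, had 33.8 and 33.5 CPM in H7 and 69.8 and 63.8 CPM in UNKC tumours (log2 fold change -0.99 ± 0.13, SE, edgeR adjusted p = 0.00528). Itgav, the alpha v integrin subunit, had 164 and 142 CPM in H7 and 243 and 219 CPM in UNKC tumours (-0.59 ± 0.13, adjusted p = 0.0307 in edgeR). Without any 1 library these values ran from -1.05 to -0.92 for Mfge8 and from -0.68 to -0.50 for Itgav, close to those with all libraries. The Mfge8 call was lost without UNKC replicate 1 (adjusted p = 0.0576) or either H7 library (0.0578 and 0.0864), and that of Itgav without any 1 tumour library (0.0908 to 0.198). With the tumours thinned to normal depth both were lost as well (0.0582 and 0.0766).

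Pi15 (chromosome 1, 17601901 to 17630939, plus strand) encodes a secreted protein of the CAP family, named for inhibition of trypsin by the human protein. It stood at 25.0 and 23.8 CPM in H7 tumours, 0.930 and 0.749 CPM in UNKC tumours and 1.85 and 5.72 CPM in normal pancreas. The normal values rest on 4 and 12 reads. Its log2 fold change against normal pancreas was 2.69 ± 0.41 in H7 (SE, adjusted p = 0.00281 in edgeR) and -2.16 ± 0.47 in UNKC tumours (adjusted p = 0.0113). These values were 3.75 and -1.11 without normal replicate 2, and 2.12 and -2.74 without normal replicate 1, with all 4 past the threshold. Scaled by total counts only, the UNKC value turned to 1.16 (adjusted p = 0.0885), below the shifted median of all genes.

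Of 11 other CAP family genes listed, 7 were tested between the tumours. In H7, 0 were higher and 2 lower, beside 7.06% and 11.1% of all genes. Crisp1, known as a sperm-binding protein of the epididymis, had 0.0869 and 0.103 CPM in H7, 321 and 250 CPM in UNKC tumours and 0.925 and 2.86 CPM in normal pancreas (log2 fold change H7 over UNKC -11.52 ± 0.41, SE, edgeR adjusted p = 0.000225). Glipr2 had 1.49 and 3.12 CPM in H7, 26.0 and 24.6 CPM in UNKC tumours and 0.925 and 1.91 CPM in normal pancreas (-3.45 ± 0.38, adjusted p = 0.00315 in edgeR). Crispld1, the tested gene nearest to Pi15 at 96.1 kb, averaged 0.287 ± 0.120 CPM in H7 and 0.0641 ± 0.0749 CPM in UNKC tumours (SD, n = 2 each, edgeR adjusted p = 0.144).

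Fmo1 (chromosome 1, 162829561 to 162866610, minus strand) had 112 and 94.5 CPM in H7 tumours, 0.288 and 0.808 CPM in UNKC tumours and 10.2 and 21.5 CPM in normal pancreas. The enzyme gene was read 7720 and 7362 times in the H7 libraries and 26 and 69 times in the UNKC libraries. The groups did not overlap, although replicates of UNKC tumours and of normal pancreas lay more than 2-fold apart. Its log2 fold change against normal pancreas was 2.71 ± 0.52 in H7 (SE, edgeR adjusted p = 0.00669) and -4.85 ± 0.59 in UNKC tumours (adjusted p = 0.00128). Without normal replicate 2 they were 3.38 and -4.18, and the UNKC value was -5.74 without UNKC replicate 2, all past the threshold. Scaled by total counts only, the UNKC call was lost (-1.56, adjusted p = 0.0574). Per length, Fmo1 was the highest of the 7 members in the deposited table of the authors for H7 tumours, at 207 and 177 TPM.

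Of 6 other genes of the family 3 were tested between the tumours. In H7, 2 were higher and 0 lower, beside 7.06% and 11.1% of all genes. Both neighbours of Fmo1 are genes of the same family, and both were higher in H7 than in UNKC tumours. Fmo4, at 13.5 kb, had 248 and 174 reads in H7 libraries and no read in UNKC or normal libraries, at least 84.1-fold higher in H7 than in UNKC tumours (edgeR adjusted p = 0.00655) and at least 2.04-fold higher than in normal pancreas (0.0375). It is named as a neighbour and lies under the level set for naming listed genes. Fmo2, at 7.71 kb, had 7.63 and 4.18 CPM in H7, 0.587 and 1.64 CPM in UNKC tumours and 32.9 and 35.3 CPM in normal pancreas. Its log2 fold change was 2.41 ± 0.52 between the tumours (SE, adjusted p = 0.028 in edgeR), and -2.53 ± 0.53 in H7 and -4.94 ± 0.59 in UNKC tumours against normal pancreas (adjusted p = 0.00923 and 0.00121). Between the tumours the value ran from 1.85 (without UNKC replicate 1) to 3.32 (without UNKC replicate 2) when 1 library was left out. The call was lost without H7 replicate 1 (0.173), H7 replicate 2 (0.0645) or UNKC replicate 1 (0.0712). Fmo5 averaged 1.24 ± 0.298 CPM in H7 and 1.12 ± 0.0439 CPM in UNKC tumours (SD, n = 2 each, edgeR adjusted p = 0.813).

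**Figure D3:**
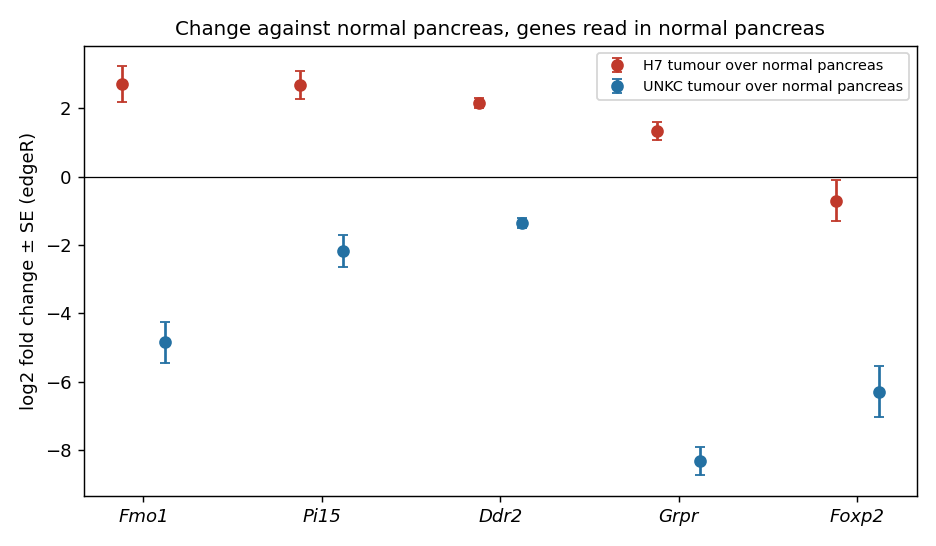
Log2 fold change against normal pancreas (vertical axis, edgeR estimate with SE bars) of the 5 members read in normal pancreas, for H7 tumours (red) and UNKC tumours (blue). H7 values run from -0.70 for Foxp2 to 2.71 for Fmo1 and UNKC values from -8.32 for Grpr to -1.35 for Ddr2.

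Insc (chromosome 7, 114743688 to 114850380, plus strand) encodes the adaptor that links the polarity protein Par3 to the spindle protein LGN. Its level was 37.0 and 37.8 CPM in H7 tumours and 0.687 and 0.726 CPM in UNKC tumours, with no read in either normal library. The replicates of each tumour lay close together. Against the floor of normal pancreas Insc stood at least 26.5-fold higher in H7 tumours (edgeR adjusted p = 0.000167). Its level in UNKC tumours lies under that floor of 1.41 CPM, so no change between UNKC tumours and normal pancreas was detectable at this depth, although edgeR gave an adjusted p of 0.010. That call was lost in DESeq2 (adjusted p = 0.0844), in the fit of only 4 libraries (0.0943), without UNKC replicate 2 (0.0507) and on the fragment counts of the authors (0.123). The deposited table of the authors gives an adjusted p of 0.441.

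All 16 listed genes of spindle orientation and polarity were tested. In H7, 2 were higher and 5 lower than in UNKC tumours, beside 7.06% and 11.1% of all genes. Gpsm2, which encodes LGN, had 30.5 and 28.7 CPM in H7, 10.4 and 11.7 CPM in UNKC tumours and 0.925 and 2.38 CPM in normal pancreas (log2 fold change H7 over UNKC 1.42 ± 0.22, SE, edgeR adjusted p = 0.00947). Prkci, an atypical protein kinase C of the Par complex, had 61.1 and 58.3 CPM in H7 and 34.8 and 31.6 CPM in UNKC tumours (0.85 ± 0.14, adjusted p = 0.0123 in edgeR). Pard3, which encodes Par3, had 32.1 and 33.98 CPM in H7 and 36.8 and 39.8 CPM in UNKC tumours (edgeR adjusted p = 0.519). The polarity genes Llgl2 (-0.82 ± 0.16, SE, adjusted p = 0.0185 in edgeR) and Llgl1 (-0.61 ± 0.14, adjusted p = 0.0336) were lower in H7 tumours. The other 3 lower genes, all under 5 CPM in every tumour library, were Pard6b, Pard6g and Gnai1. Without any 1 library the log2 fold changes stayed close to these values, from 1.35 to 1.501 for Gpsm2, 0.78 to 0.92 for Prkci, -0.65 to -0.55 for Llgl1 and -0.89 to -0.73 for Llgl2. The calls of Prkci, Llgl1 and Llgl2 were lost without any 1 tumour library (adjusted p up to 0.127, 0.211 and 0.137), and that of Gpsm2 without either H7 library or UNKC replicate 1 (0.0651 to 0.114).

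Foxp2 (chromosome 6, 14901349 to 15441977, plus strand) had 7.83 and 21.0 CPM in H7 tumours, 0.144 and 0.457 CPM in UNKC tumours and 25.0 and 21.9 CPM in normal pancreas. It was the only member whose H7 replicates lay more than 2-fold apart, and both lay below both normal libraries. Its log2 fold change was -0.70 ± 0.61 in H7 tumours against normal pancreas (SE, edgeR adjusted p = 0.375), a value that turned to 2.61 (adjusted p = 0.0098) when scaled by total counts, where the median of all genes moved to 3.61. The interval of counting error for this ratio, 0.631 of the normal level, ran from 0.475 to 0.855. Without H7 replicate 1 or 2 the H7 value was -0.09 or -1.55, neither past the threshold. In UNKC tumours it was -6.29 ± 0.75 (adjusted p = 0.00124 in edgeR), -5.65 without UNKC replicate 1 and -7.30 without UNKC replicate 2, both past the threshold. The higher replicate of each tumour was replicate 2, which also held the skeletal muscle reads. H7 replicate 2 had 576 CPM of muscle markers and 21.0 CPM of Foxp2, and UNKC replicate 2 had 2086 and 0.457 CPM, and the part of muscle in the Foxp2 level was not tested.

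Of the related factors, Foxp1 had 169 and 141 CPM in H7 and 87.6 and 82.9 CPM in UNKC tumours (log2 fold change 0.86 ± 0.14, SE, edgeR adjusted p = 0.01), and 82.4 and 78.7 CPM in normal pancreas. Without any 1 library the value ran from 0.75 to 0.99. The Foxp1 call was lost without H7 replicate 1 (adjusted p = 0.0967), UNKC replicate 1 (0.0678) or UNKC replicate 2 (0.0702), and by total counts (0.0686). Foxp4 averaged 13.5 ± 1.45 CPM in H7 and 15.0 ± 0.476 CPM in UNKC tumours (SD, n = 2 each, edgeR adjusted p = 0.597). Srpx2, known in human cells as a gene that FOXP2 represses, was lower in H7 than in UNKC tumours, with 1.16 and 1.23 CPM against 5.16 and 7.06 CPM (-2.35 ± 0.44, SE, adjusted p = 0.0111 in edgeR). The value ran from -2.55 to -2.11 without any 1 library, and the call was lost without H7 replicate 1 (0.153) or 2 (0.0874) and at normal depth (0.332). Cntnap2, the other FOXP2 target listed, had 4 and 6 reads in H7 and 2 and 4 in UNKC libraries. It did not pass between the tumours (log2 fold change 0.94 ± 0.73, SE, edgeR adjusted p = 0.446). All 5 genes listed with Foxp2 were tested. In H7, 1 was higher and 1 lower than in UNKC tumours, beside 7.06% and 11.1% of all genes.

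Lncenc1 (chromosome 13, 97434970 to 97497664, plus strand) had 77.2 and 63.2 CPM in H7 tumours and 0.0221 and 0.164 CPM in UNKC tumours. The noncoding RNA was read 5332 and 4928 times in the H7 libraries, 2 and 14 times in the UNKC libraries and never in normal pancreas. Against the floor of normal pancreas it stood at least 49.5-fold higher in H7 tumours (edgeR adjusted p = 0.0017). Its UNKC level lies under that floor, and no difference between UNKC tumours and normal pancreas was detectable at this depth (adjusted p = 0.598 in edgeR). Between the tumours the ratio was 767, with a counting interval from 389 to 1777, which covers counting error only and is no test of the contrast that chose the genes. Enc1, the gene on its lower side at 182 kb, had 74.9 and 60.9 CPM in H7 and 67.6 and 72.4 CPM in UNKC tumours (log2 fold change -0.04 ± 0.24, SE, edgeR adjusted p = 0.933).

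Of 15 genes of naive pluripotency and partners of Lncenc1, 10 were tested between the tumours. In H7, 2 were higher and 2 lower, beside 7.06% and 11.1% of all genes. Sox2, a factor of stem cells and of several epithelia, had 16.9 and 11.9 CPM in H7, 0.842 and 0.433 CPM in UNKC tumours and 0 and 0.954 CPM in normal pancreas. Its log2 fold change was 4.49 ± 0.54 between the tumours (SE, edgeR adjusted p = 0.00222). The normal level rests on 2 reads. Pou5f1, Zfp42 and Dppa5a, which are used to define embryonic stem cells, had no read in any group. Nanog, another such factor, had 4 and 17 reads in H7, 0 and 3 in UNKC and 0 and 4 in normal libraries and did not pass between the tumours (edgeR adjusted p = 0.194), nor did Tfcp2l1, with 25.2 and 15.8 CPM in H7 and 16.8 and 21.0 CPM in UNKC tumours (0.837). The other gene called higher was Dppa3, at 0.246 and 0.321 CPM in H7 and 0.0332 and 0.0117 CPM in UNKC tumours. Klf5 (-1.19 ± 0.16, SE, adjusted p = 0.0059 in edgeR) and Klf2 (-1.59 ± 0.26, adjusted p = 0.0118) were lower in H7 than in UNKC tumours. Without any 1 library the values ran from -1.26 to -1.11 for Klf5 and from -1.78 to -1.36 for Klf2. Both Klf calls were lost without H7 replicate 1 (0.0976 and 0.13) or 2 (0.0552 and 0.077), that of Klf5 also without UNKC replicate 1 (0.0629), and that of Klf2 without UNKC replicate 2 (0.0576) and at normal depth (0.238). The RNA-binding partners known from mouse stem cells, Ptbp1 and Hnrnpk, averaged 107 ± 7.12 and 61.1 ± 2.54 CPM in H7 and 100 ± 1.31 and 64.2 ± 2.03 CPM in UNKC tumours (SD, n = 2 each, edgeR adjusted p = 0.733 and 0.774).

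**Figure D4:**
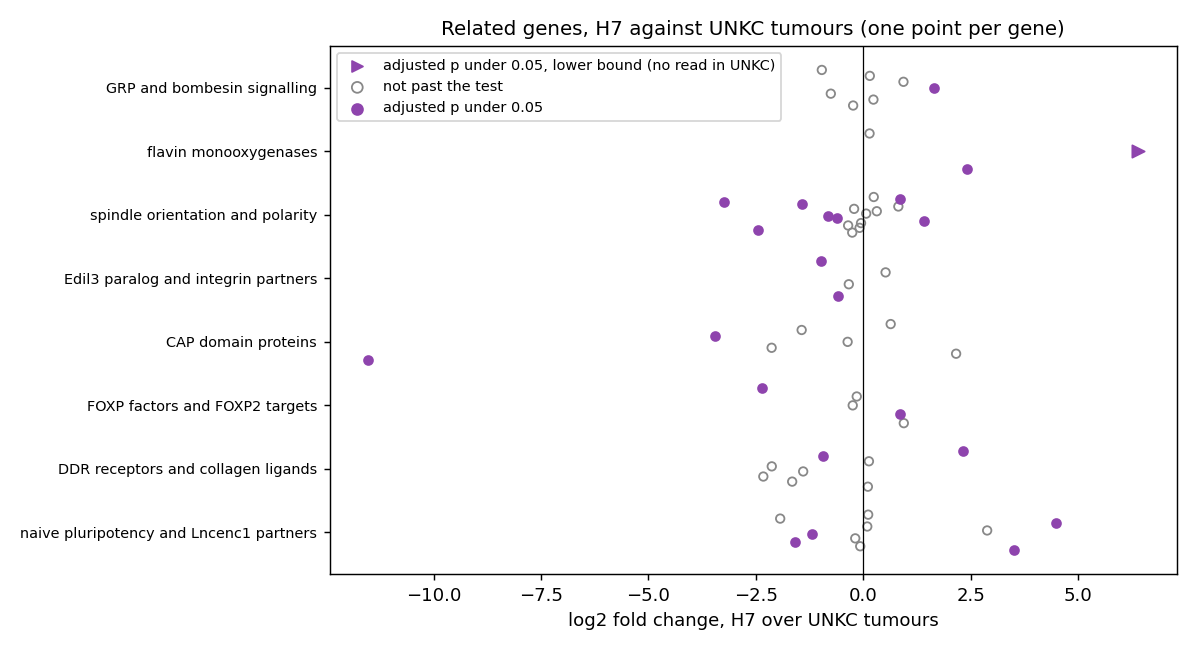
Log2 fold change between H7 and UNKC tumours (horizontal axis) of the 60 tested genes of the 8 lists (rows), 1 point per gene, filled where the edgeR adjusted p is under 0.05; a triangle marks a lower bound where UNKC libraries had no read. Filled points lie on both sides of 0, 9 higher and 13 lower in H7 tumours, with Crisp1 at -11.52.

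Over all 8 lists, 9 of 60 tested genes were higher and 13 lower in H7 than in UNKC tumours, beside 7.06% and 11.1% of all genes. Their median log2 fold change was -0.17, beside -0.02 over all genes. The counts were 2 and 2 without H7 replicate 1, 4 and 4 without H7 replicate 2, 3 and 5 without UNKC replicate 1 and 6 and 9 without UNKC replicate 2. Over all genes the calls between the tumours fell as well, to 184 higher and 378 lower without H7 replicate 1, against 1152 and 1808 with all libraries. The calls of the 8 members against normal pancreas, other than Insc in UNKC tumours, were kept without any 1 library. The 16 tested genes that lie next to a member on its lower and higher side included 4 that were higher and 1 that was lower in H7 than in UNKC tumours. Over all genes 7.06% were higher and 11.1% lower. The 4 were Fmo2 and Fmo4 (both next to Fmo1), Hsd17b7 (3.07 kb from Ddr2) and Ap1s2 (359 kb from Grpr), and the 1 was Mdfic (279 kb from Foxp2). Uap1, on the other side of Ddr2 at 30.4 kb, had 25.5 and 28.3 CPM in H7 and 33.6 and 35.1 CPM in UNKC tumours (log2 fold change -0.35 ± 0.13, SE, edgeR adjusted p = 0.121).

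Per length, in the tables deposited by the authors, the members in H7 tumours were ordered Fmo1 (192 ± 21.4 TPM), Ddr2 (94.2 ± 6.91), Lncenc1 (93.4 ± 12.6), Insc (70.0 ± 1.75), Edil3 (34.6 ± 0.369), Pi15 (15.1 ± 0.456) and Foxp2 (8.80 ± 5.72, SD, n = 2 each). Ddr2 and Lncenc1 did not differ beyond their spread, and the highest Foxp2 value, 12.8 TPM, was below the lowest of Pi15, 14.7 TPM. In UNKC tumours Ddr2 (9.21 ± 1.14 TPM) and Edil3 (6.39 ± 3.03 TPM) were the highest of the 6 members listed, and the ranges of their libraries overlapped. In normal pancreas Fmo1 (2.86 ± 1.67 TPM), Ddr2 (2.03 ± 0.200) and Foxp2 (1.34 ± 0.0199) led, and Pi15 had 0.229 ± 0.178 TPM. Grpr has no row in the tables used here, nor has Lncenc1 in the UNKC table. TPM relate to all RNA, ribosomal RNA included, which took most reads in normal pancreas, so TPM are not set across tumour and normal libraries here.

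The 8 genes were not the 8 with the largest difference between the tumours. Among 6833 genes with at least 10 CPM in H7 tumours, ranked by log2 fold change over UNKC tumours, Grpr was in place 1, Lncenc1 in 2, Fmo1 in 4, Insc in 16, Foxp2 in 17, Pi15 in 26, Ddr2 in 51 and Edil3 in 92. The rule gives no threshold, and genes such as Cxcl15 (place 3) that are no member lie between them. The genes whose log2 CPM over the 6 libraries lay nearest to the mean profile of the members were Gdpd2 (Euclidean distance 1.21), Aqp5 (1.23), Gm15097 (1.25), Angpt1 (1.36) and Pcdh19 (1.45). The members themselves lay further from their own mean, from 2.30 for Pi15 to 8.69 for Edil3. Angpt1, a ligand of the Tie2 receptor, had 182 and 205 CPM in H7, 2.29 and 2.97 CPM in UNKC tumours and 11.1 and 14.8 CPM in normal pancreas. Aqp5, a water channel, had 58.1 and 52.8 CPM in H7, 1.02 and 0.937 CPM in UNKC tumours and 0.925 and 0.954 CPM in normal pancreas. The normal values of Aqp5 rest on 2 and 2 reads and lie under the floor of 1.41 CPM.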

How the data were processed

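Per the submitters' processing notes, the tools used were STAR, featureCounts and DESeq2 1.18.1 and the build was mm10 (GRCm38); their settings, strand and other versions are not given in the sources used here. The authors deposited raw read counts per gene ID for each sample, for 27179 genes, whose values are about 2 for each fragment in the tables and were read as counting both mates. Their 2 comparison tables, as deposited, hold fragment counts, TPM, log2 fold changes and p-values for genes with at least 10 fragments over 4 libraries. Names came from these tables or, by gene ID, from RefSeq, as for Grpr.

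Counts were tested with edgeR 4.0.16 (R 4.3.3; filterByExpr, TMM factors, quasi-likelihood fit of all 6 libraries, threshold 0.05), which left all 8 members among 16306 genes. Replicates correlated less in normal pancreas (r = 0.801 across genes, which are not independent replicates) than in H7 (0.967) and UNKC tumours (0.949), and the fit shares 1 estimate of the spread. Where a group had no read, the bound uses 3 read pairs over the group; intervals are exact binomial on pairs and cover counting error only. DESeq2 1.42.0 was an alternative, and the pipeline was tested on simulated data. The simulation gave all groups the same mean for each gene, apart from genes raised in H7 libraries. It did not copy the composition of normal pancreas, so it does not check how that composition affects the calls. Members and lists were chosen with earlier results of these data known. Listed genes are named where they pass between the tumours with at least 5 CPM, up to 2 in each direction per list, and for likeness the 5 nearest genes. Neighbours, Fmo4, Dppa3, Nanog, Tfcp2l1, low polarity genes, collagen, marker and other listed genes given without a call were named after their values were seen. Prior count for log2 CPM was 2.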

Additional observations from a re-analysis of the deposited data

Results flagged for a closer look

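In CPM, Grpr, Fmo1, Pi15 and Ddr2 stood above normal pancreas in both H7 libraries and below it in both UNKC libraries. The UNKC side depends on the scaling. By total counts only, the UNKC log2 fold change was 2.00 for Ddr2 and 1.16 for Pi15, -1.56 for Fmo1 (call lost) and -4.96 for Grpr. The median of all genes then moved to 3.77. The normal level of Pi15 rests on 4 and 12 reads. The log2 difference between H7 and UNKC tumours was 9.65 for Grpr, 7.56 for Fmo1, 4.86 for Pi15 and 3.51 for Ddr2, and was not tested because it chose these genes.

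The named listed genes below were chosen because they passed the edgeR test of H7 against UNKC tumours, so that test adds no support here. Both tumours share the normal libraries, so the difference of their changes against normal pancreas is the difference between the tumours. Many of these calls were lost when a tumour library was left out, as given above. The difference was positive, on the log2 scale, for Sox2 (4.49), Fmo2 (2.41), Snai1 (2.33), Plcb1 (1.64), Gpsm2 (1.42), Foxp1 (0.86) and Prkci (0.85). It was negative for Crisp1 (-11.52), Glipr2 (-3.45), Srpx2 (-2.35), Klf2 (-1.59), Klf5 (-1.19), Mfge8 (-0.99), Mmp13 (-0.95), Llgl2 (-0.82), Llgl1 (-0.61) and Itgav (-0.59). Crisp1 was called in opposite directions against normal pancreas, at -4.27 in H7 and 7.24 in UNKC tumours. The H7 call rests on 6 and 8 reads in H7 and 2 and 6 reads in normal libraries. Their normal mean of 1.89 CPM is near the floor of 1.41 CPM.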

How the results depend on the processing

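Results were recomputed under 17 alternatives, and 1 more was chosen after seeing the data. Of the 8 members 7 stayed higher in H7 tumours than in normal pancreas without any 1 library, and 5 lower in UNKC tumours. By total counts 8 members were higher in H7 tumours, and 3 were higher and 2 lower in UNKC tumours. Foxp2 in H7 (2.61), Ddr2 (2.00) and Pi15 (1.16) in UNKC tumours turned upward while the medians of all genes moved to 3.61 and 3.77. In UNKC tumours 1 member was higher, not 2, in DESeq2, in the fit of only 4 libraries and on the fragment counts of the authors, and 1 to 2 without 1 library. In DESeq2 Lncenc1 turned to -0.10 there (adjusted p = 0.964). The median log2 difference of the members between the tumours was 5.65, 5.21 on fragment counts (with fewer members), 6.09 at normal depth and 5.30 to 6.19 without 1 library. Listed genes called between the tumours numbered 5 higher and 6 lower at normal depth, and 2 to 11 and 2 to 14 without 1 library. The cause of these moves was not tested.

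Without both replicate 2 tumour libraries edgeR called 0 members or listed genes in any direction, and 0 of all genes, since only the normal libraries then give a spread. At an unadjusted p under 0.05 this fit had 7 members higher in H7, 1 higher and 5 lower in UNKC tumours, and 7 listed genes higher and 11 lower between the tumours. With the replicate block, an alternative for which the labels give no pairing, 7, 2 and 5 members and 9 and 17 listed genes were called, against 9 and 13 without it, and Llgl1 lost its call (adjusted p = 0.0511). Deviations of replicate 1 correlated at 0.526 between H7 and UNKC tumours, -0.0122 between H7 tumours and normal pancreas and -0.0232 between UNKC tumours and normal pancreas. Depth limits Lncenc1, Insc and Edil3 in normal pancreas, where levels under 1.41 CPM cannot be told from 0.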
